A study of Mus musculus with 9 samples.

Results

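Neuropeptide receptors were followed across the layers of mouse piriform cortex, the olfactory area of the cortex, in 10 genes: Trhr, Sstr1, Sstr2, Sstr3, Sstr4, Npy1r, Npy2r, Cckbr, Oxtr and Crhr1. The genes were taken from a fixed list of names, and each was represented by its Ensembl transcript with the highest mean count over the 9 samples, which gave 10 of the 95533 transcripts counted. All 10 passed the filter of at least 10 counts in at least 3 samples, as did 56416 transcripts in all. Fresh-frozen coronal sections came from wild-type C57BL/6 mice labelled as 8 weeks old, and laser-capture micro-dissection cut the layers from them. The written methods give a slightly older age. Each layer, lettered A, B or C, gave 3 samples, and all 9 shared strain, genotype and tissue, with no treatment. Which letter stands for layer I, II or III is not given, and the letters are kept. Neither the labels nor the methods tie samples to animals, so samples may share a mouse and p-values measure only the spread between these samples.

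Neuropeptides are short signalling chains released by neurons, and they act through receptors of the G protein-coupled family. In cortex many of these peptides are made by inhibitory interneurons, and their receptors tune excitability and transmitter release in neighbouring cells. The receptors followed here fall into 3 kinds by the G protein they mainly use. The thyrotropin-releasing hormone receptor Trhr, the brain cholecystokinin receptor Cckbr and the oxytocin receptor Oxtr act through Gq and phospholipase C. The somatostatin receptors Sstr1 to Sstr4 and the neuropeptide Y receptors Npy1r and Npy2r act through Gi/o, which lowers cyclic AMP and opens potassium channels. Crhr1, the main brain receptor for corticotropin-releasing hormone, acts through Gs.

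Start regions are shown for the receptors that passed the test between layers and have an entry in the RefSeq promoter table of GRCm38.p6, each with 250 bases before and 50 bases after the gene's start. Of the 10 receptors, 8 had an entry. Capitals mark the cyclic AMP response element TGACGTCA, the E-box CAGCTG and the GC box, read as GGGCGG or CCGCCC, each searched on both strands. These motifs stand in 1.79%, 16.3% and 35.7% of the 32851 promoters of the table. The Sstr2 region lies at chr11:113619077-113619376 on the plus strand, Npy2r at chr3:82548036-82548335 on the minus strand, Oxtr at chr6:112489776-112490075 on the minus strand and Cckbr at chr7:105425481-105425780 on the plus strand.
Sstr2: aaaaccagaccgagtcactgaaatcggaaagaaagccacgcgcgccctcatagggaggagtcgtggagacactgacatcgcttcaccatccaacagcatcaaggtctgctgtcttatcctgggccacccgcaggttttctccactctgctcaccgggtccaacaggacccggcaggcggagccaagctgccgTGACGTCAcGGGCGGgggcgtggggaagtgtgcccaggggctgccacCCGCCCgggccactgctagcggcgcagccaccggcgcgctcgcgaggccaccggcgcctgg
Npy2r: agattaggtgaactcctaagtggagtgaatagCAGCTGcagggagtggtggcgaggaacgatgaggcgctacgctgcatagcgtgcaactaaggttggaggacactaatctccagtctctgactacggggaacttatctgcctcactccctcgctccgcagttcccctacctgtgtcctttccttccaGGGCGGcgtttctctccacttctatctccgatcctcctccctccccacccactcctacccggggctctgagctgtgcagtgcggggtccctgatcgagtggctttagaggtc
Oxtr: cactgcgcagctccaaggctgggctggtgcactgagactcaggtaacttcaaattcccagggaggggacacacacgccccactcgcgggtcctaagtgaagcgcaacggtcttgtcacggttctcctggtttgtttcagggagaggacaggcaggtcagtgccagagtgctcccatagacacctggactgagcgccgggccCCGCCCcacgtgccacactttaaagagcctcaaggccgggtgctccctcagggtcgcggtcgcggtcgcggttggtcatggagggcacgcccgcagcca
Cckbr: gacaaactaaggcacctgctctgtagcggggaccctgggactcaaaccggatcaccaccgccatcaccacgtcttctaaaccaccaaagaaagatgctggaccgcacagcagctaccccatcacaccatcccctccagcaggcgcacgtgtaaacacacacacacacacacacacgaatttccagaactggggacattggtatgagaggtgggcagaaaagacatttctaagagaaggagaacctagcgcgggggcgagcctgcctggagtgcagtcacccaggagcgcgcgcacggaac
Sstr2 held 1 cyclic AMP response element beside a GC box and a further GC box downstream, the only cyclic AMP response element among the 9 start regions of the 8 receptors. Npy2r held 1 E-box and 1 GC box, Oxtr held 1 GC box and Cckbr held none of these letters. The TATA box letters TATAAA, present in 13.6% of all promoters, were in none of the receptor regions.

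Total counts ranged from 23104306 to 76471683 per sample. Mitochondrial ribosomal RNA took between 55.3% and 70.2% of counts in A, between 12.8% and 28.1% in B and between 20.5% and 57.1% in C. Counts outside the mitochondrial genome ranged from 6929782 to 19051783 in A, from 22117880 to 30912343 in B and from 9477078 to 60245059 in C, so that every A sample was below every B sample in depth while A and C overlapped. Levels are given as normalized CPM, in which each count is divided by its library total after edgeR's TMM scaling. On that scale 3 counts, taken as a floor, correspond to 0.0256 to 0.254 normalized CPM, which covers counting error only. Layer B replicate 3 stood apart from the other layer B samples, with a correlation of log values across transcripts of 0.888 and 0.88 with replicates 1 and 2 against 0.978 between those. Astrocyte, endothelial and pericyte, and meningeal markers were higher in layer A, and pan-neuronal markers were lower there. Summed astrocyte markers reached 5070 to 10705 normalized CPM in A, 733 to 1218 in B and 1264 to 1738 in C, and all 10 passed the test against both layers, where 10.7% of all tested transcripts passed higher in A than in B and 6.98% higher in A than in C. All 10 endothelial and pericyte markers passed against layer B and 9 against layer C, with sums of 240.0 to 408 normalized CPM in layer A, 20.2 to 64.3 in B and 54.3 to 76.2 in C. All 10 meningeal markers passed against both, with sums of 221 to 683 normalized CPM in layer A, 5.63 to 21.3 in B and 9.50 to 41.3 in C. Microglial markers passed higher in layer A in 8 of 10 against B and 6 of 10 against C. Oligodendrocyte markers did so in 4 of 10 and 1 of 10, the latter near the 6.98% of all tested transcripts. Pan-neuronal markers passed lower in layer A in 9 of 10 against B and 7 of 10 against C, beside 5.83% and 4.35% of all tested transcripts. Their sums were 891 to 1508 normalized CPM in A, 2381 to 6273 in B and 2854 to 3764 in C. Glutamatergic markers passed higher in layer A in 2 of 10 and lower in 3 of 10 against B, and higher in 2 and lower in 5 against C. Their sums were higher in A, at 2436 to 4455 normalized CPM, than in B (1223 to 1288) and C (1219 to 1757). The median log2 difference of these 10 markers was -1.08 against B and -0.99 against C, so the sums do not describe the markers as a whole. Of the 10 GABAergic markers, 1 passed higher in A than in B, near the 10.7% of all tested transcripts. Another passed lower in A than in C, beside 4.35%. The only marker counts of 0 were those of Pvalb in layer A replicate 1 and Slc6a13 in layer C replicate 2. The part of cell makeup in the receptor differences was not tested.

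**Figure D1:**
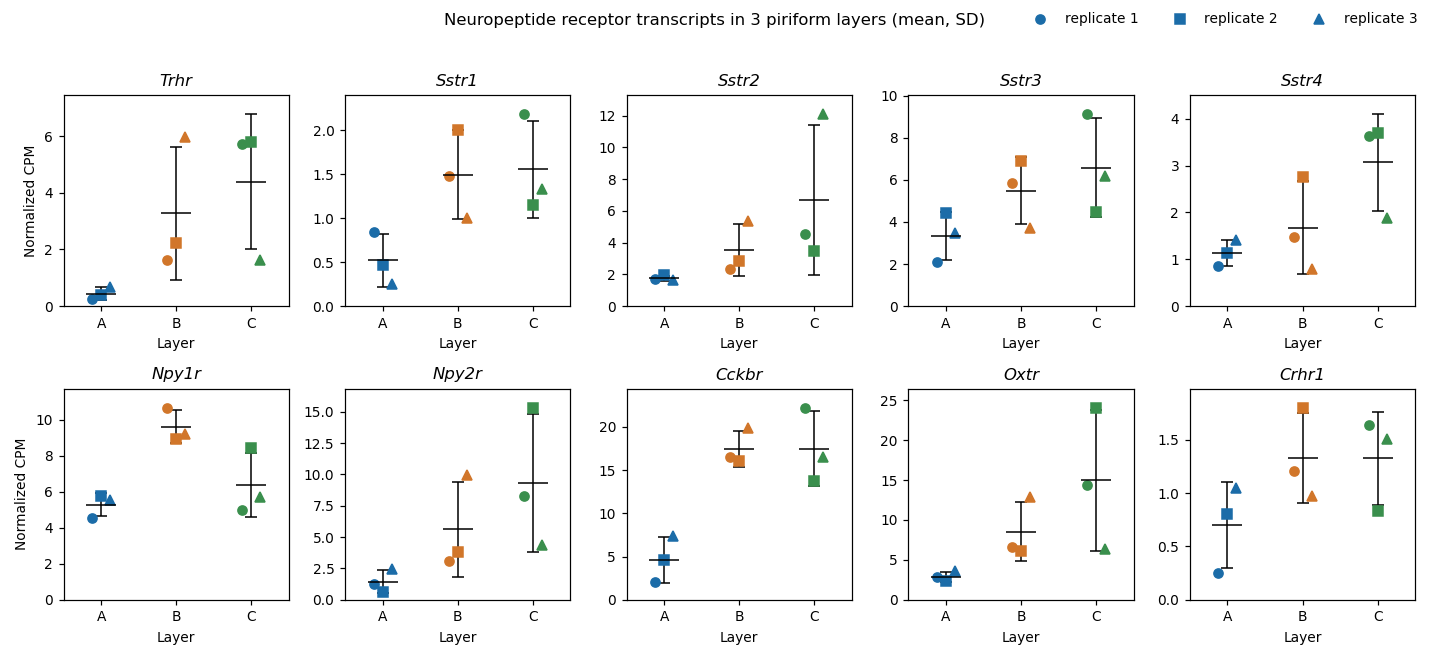
Normalized CPM (vertical axis, linear, scale set per gene) of the 10 receptor transcripts in layers A, B and C, with 1 symbol per replicate, a bar at the mean and whiskers of 1 SD over 3 samples. In Trhr, Npy2r, Cckbr and Oxtr every layer A sample lies below every layer B and C sample, with layer A maxima of 0.673, 2.44, 7.33 and 3.57.

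The first comparison asked which receptors differ between layer A and the other layers. Trhr, Npy2r, Cckbr and Oxtr were lower in A than in B and C, by between 2.92-fold and 9.09-fold, and Sstr2 was 3.84-fold lower in A than in C. Between A and B 4 of 10 receptors had an adjusted p-value under 0.05, all higher in B, beside 16.5% of all tested transcripts in either direction and 5.83% higher in B (quasi-likelihood test of edgeR, p-values adjusted by Benjamini-Hochberg over all 56416). Between A and C 5 of 10 passed, all higher in C, beside 11.3% in either direction and 4.35% higher in C. Tested over the 3 layers together, 5 of 10 passed, beside 14.3% of all transcripts, and 4 of 10 were lower in A than in both other layers at the adjusted threshold, beside 3.42%. Fitted values of all 10 were lower in layer A in both comparisons, with a median log2 difference of -1.28 against B and -1.79 against C, where all tested transcripts had medians of -0.12 and -0.01, but scaling on pan-neuronal genes turned 7 of 10 against B and 4 of 10 against C. Samples of A and B did not overlap in 7 receptors, with B higher in 15.1% of all tested transcripts in this way, and samples of A and C did not overlap in 8, with C higher in 14.5%. Leaving out layer A replicate 2 or layer C replicate 1 left 2 calls against B, and leaving out layer A replicate 1, layer A replicate 2 or layer C replicate 1 left 3, 3 and 2 against C, whereas without layer B replicate 3 there were 3 and 7. In these bulk samples fewer cells of a type and less RNA per cell cannot be told apart. The comparisons share the layer A samples, so their values are not independent of each other.

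**Figure D2:**
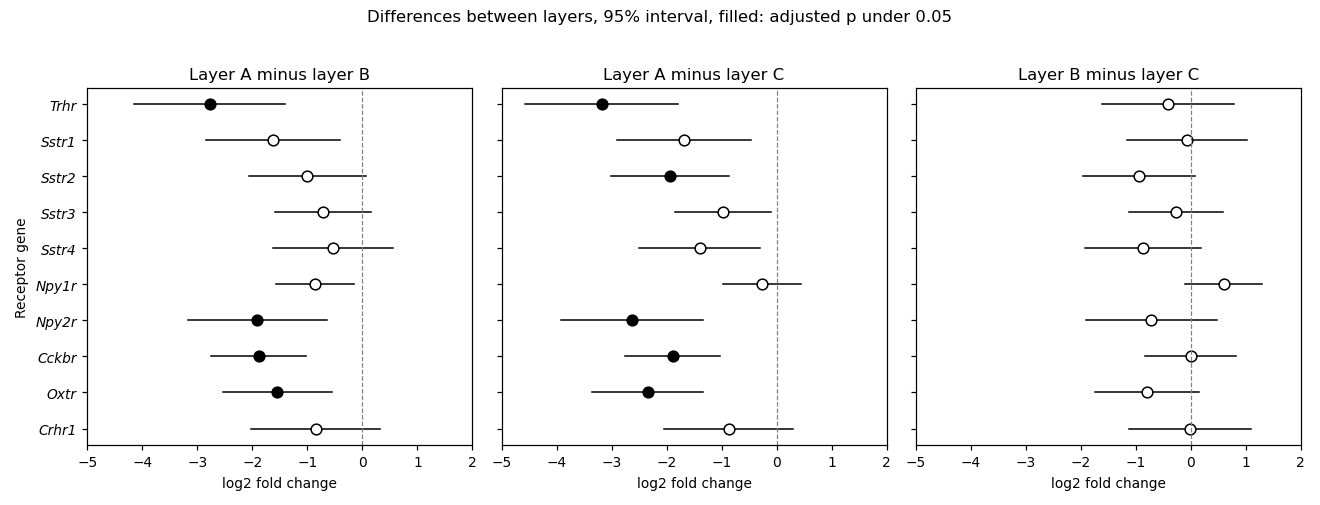
Log2 fold change (horizontal axis) of each receptor between pairs of layers after TMM scaling, with 95% intervals from edgeR's fit of 3 samples per layer and filled points where the adjusted p-value is under 0.05. Filled points number 4 for A against B, 5 for A against C and 0 for B against C, and after scaling on pan-neuronal genes 7 and 4 of the A differences change sign.

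Among the receptors that act through Gq, all 3 passed lower in A against both layers, beside 3.42% of all tested transcripts. With pan-neuronal scaling none of them passed against B, and only Trhr passed against C. A difference between the kinds of receptor was not tested. Trhr (ENSMUST00000038856, chr15:44196135-44235544, plus strand, mm10) encodes the receptor through which thyrotropin-releasing hormone excites neurons. Its level was 0.254, 0.401 and 0.673 normalized CPM in layer A replicates 1, 2 and 3, from 3, 6 and 27 counts. In layer B it was 1.64, 2.22 and 5.97, and in layer C 5.74, 5.80 and 1.64. Every layer A sample was below every other sample, and layer A replicate 1 was at the floor. Layer A was 6.85-fold below B (log2 difference -2.78, SE 0.65, adjusted p = 0.0084 in edgeR's quasi-likelihood test) and 9.09-fold below C (-3.18, SE 0.65, adjusted p = 0.0077). Both calls held without any 1 of the 9 samples, with differences of -3.27 to -1.94 against B and -3.68 to -2.94 against C.

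Cckbr (ENSMUST00000033189, chr7:105425731-105436339, plus strand), the receptor of cholecystokinin that predominates in brain, had the highest mean level of the set per length in each layer, although its layer A samples overlapped those of Npy1r. Its normalized CPM was 2.03, 4.54 and 7.33 in layer A, 16.5, 16.0 and 19.9 in layer B, and 22.2, 13.8 and 16.5 in layer C. The highest layer A sample was below the lowest sample of the other layers. Layer A was 3.70-fold below B (log2 difference -1.89, SE 0.41, adjusted p = 0.0053) and 3.71-fold below C (-1.89, SE 0.41, adjusted p = 0.0094) in edgeR's quasi-likelihood test. Leaving out layer C replicate 1 gave -1.69 against C, with an adjusted p of 0.061.

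Oxtr (ENSMUST00000053306, chr6:112473683-112489943, minus strand), through which oxytocin modulates olfactory and social behaviour, was at 2.79, 2.34 and 3.57 normalized CPM in layer A. It reached 6.67, 6.12 and 12.9 in layer B and 14.4, 24.0 and 6.41 in layer C. The groups of A and B and of A and C did not overlap, while layer C replicate 3 was within the range of layer B. Layer A was 2.92-fold below B (log2 difference -1.55, SE 0.47, adjusted p = 0.033) and 5.09-fold below C (-2.35, SE 0.48, adjusted p = 0.0073) in edgeR's quasi-likelihood test. The call against B ended without any 1 of the layer A samples, layer B replicate 3 or layer C replicate 1, with differences of -1.72 to -1.07 and adjusted p-values of 0.057 to 0.12, and the difference from B became 0.16 with pan-neuronal scaling.

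Among the 6 receptors that act through Gi/o, Npy2r passed lower in A against both layers and Sstr2 against layer C. Of all tested transcripts, 3.42% passed lower in A than in both layers and 4.35% lower in A than in C. Npy2r (ENSMUST00000029633, chr3:82538383-82548084, minus strand) encodes a receptor of neuropeptide Y that often sits on axon endings and limits release. It was at 1.27, 0.601 and 2.44 normalized CPM in layer A, 3.10, 3.79 and 9.99 in layer B and 8.27, 15.3 and 4.39 in layer C. Layer A lay below both other layers in every sample. The difference was 3.75-fold against B (log2 -1.91, SE 0.59, adjusted p = 0.039) and 6.16-fold against C (-2.62, SE 0.61, adjusted p = 0.013) in edgeR's quasi-likelihood test. Leaving out layer A replicate 1 or 2, layer B replicate 3 or layer C replicate 1 ended the call against B, at differences of -1.89 to -1.13, and leaving out layer A replicate 1 or 2 or layer C replicate 1 or 2 ended that against C, at -2.72 to -2.08.

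Npy1r (ENSMUST00000039303, chr8:66697422-66706792, plus strand), the neuropeptide Y receptor found mostly on cell bodies and dendrites, had another pattern. Its normalized CPM was 4.57, 5.74 and 5.54 in layer A, 10.7, 8.96 and 9.24 in layer B and 5.01, 8.42 and 5.72 in layer C. Layer B was above every sample of A and C, and A and C overlapped. The log2 difference was -0.86 between A and B (SE 0.33, adjusted p = 0.094) and -0.26 between A and C (SE 0.33, adjusted p = 0.70) in edgeR's quasi-likelihood test, and neither passed. Scaled on pan-neuronal genes, Npy1r was higher in layer A than in C by a log2 difference of 1.23, which passed with an adjusted p of 0.039. Of its 2952 windows of 50 bases, 98 (3.32%) recur on either strand in annotated transcripts of other genes, while the transcripts of the other receptors held no such window.

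The balance between the neuropeptide Y receptors within a sample does not depend on how libraries are scaled. The ratio of Npy1r to Npy2r, each in CPM per kilobase, was 4.04, 10.7 and 2.54 in layer A, 3.86, 2.65 and 1.04 in layer B and 0.679, 0.617 and 1.46 in layer C. Npy1r exceeded Npy2r in every sample of A and B, and Npy2r exceeded Npy1r in layer C replicates 1 and 2. The ratios of A and C did not overlap, with mean log2 ratios of 2.26 ± 1.06 and -0.24 ± 0.68 (SD, n = 3), and a two-sided exact permutation test gave p = 0.1, the smallest p that 3 against 3 samples allow. The mean log2 ratio in B was 1.14 ± 0.98 (SD, n = 3), with exact permutation p = 0.3 against A and 0.2 against C, and all 3 became 0.3 after Benjamini-Hochberg adjustment.

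The somatostatin receptors inhibit the cells that carry them and differ in where they sit, Sstr3 being known from neuronal cilia. Sstr2 (ENSMUST00000146390, chr11:113619342-113626028, plus strand) was at 1.69, 1.94 and 1.65 normalized CPM in layer A, 2.36, 2.84 and 5.37 in layer B and 4.51, 3.44 and 12.1 in layer C. Layer A was below the other layers in every sample, and layer C replicate 3 was the highest of all. Against C the log2 difference was -1.94 (SE 0.51, adjusted p = 0.023) in edgeR's quasi-likelihood test, and against B it was -1.01 (SE 0.50, adjusted p = 0.20). The call against C ended without any 1 of the layer A samples, layer C replicate 1 or layer C replicate 3, and without the last the difference was -1.16.

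Sstr1 (ENSMUST00000044299, chr12:58211804-58214444, plus strand) was at 0.847, 0.468 and 0.249 normalized CPM in layer A, 1.48, 2.01 and 0.999 in B and 2.18, 1.15 and 1.34 in C. Groups A and B and groups A and C did not overlap, yet the log2 differences of -1.62 (SE 0.57, adjusted p = 0.066) and -1.69 (SE 0.57, adjusted p = 0.073) did not pass edgeR's quasi-likelihood test. DESeq2 gave adjusted p-values of 0.032 and 0.029, and without layer B replicate 3 edgeR gave 0.032 and 0.036. Sstr3 (ENSMUST00000053239, chr15:78537008-78544685, minus strand) was at 2.12, 4.41 and 3.47 normalized CPM in layer A, 5.86, 6.88 and 3.73 in B and 9.13, 4.47 and 6.18 in C. Its log2 differences were -0.71 (SE 0.41, adjusted p = 0.27) against B and -0.98 (SE 0.41, adjusted p = 0.15) against C in the same test. Sstr4 (ENSMUST00000109962, chr2:148395344-148396767, plus strand) was at 0.847, 1.14 and 1.42 normalized CPM in layer A, 1.48, 2.75 and 0.791 in B and 3.63, 3.70 and 1.88 in C. Layer B replicate 3 fell below layer A, and no C sample did. Differences for Sstr4 were -0.53 (SE 0.51, adjusted p = 0.54) against B and -1.40 (SE 0.52, adjusted p = 0.10) against C in edgeR's test, and the latter passed without layer B replicate 3 (-1.38, adjusted p = 0.036).

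Within the 4 somatostatin receptors, Sstr2 took 31.1% ± 3.00 (SD, n = 3) of the summed CPM per kilobase in layer A, 35.0% ± 18.7 in B and 38.9% ± 20.2 in C. Its share was 56.6% in layer B replicate 3 and 62.2% in layer C replicate 3 and between 22.6% and 34.4% in the other samples. The share of Sstr4 was lowest in those same samples, at 12.5% and 14.6%, and between 24.5% and 44.6% elsewhere. The shares of the layers thus overlapped, and replicates of B and C differed more than the layer means did.

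Crhr1 (ENSMUST00000093925, chr11:104132855-104175523, plus strand), the Gs-coupled receptor of the stress peptide corticotropin-releasing hormone, overlapped between all layers. Its level was 0.254, 0.802 and 1.05 normalized CPM in layer A, 1.21, 1.801 and 0.978 in B and 1.64, 0.829 and 1.51 in C. Layer A replicate 1, with 3 counts, was at the floor. The log2 differences were -0.85 (SE 0.55, 95% interval -2.02 to 0.32, adjusted p = 0.34) against B and -0.87 (SE 0.55, -2.04 to 0.30, adjusted p = 0.37) against C in edgeR's quasi-likelihood test.

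**Figure D3:**
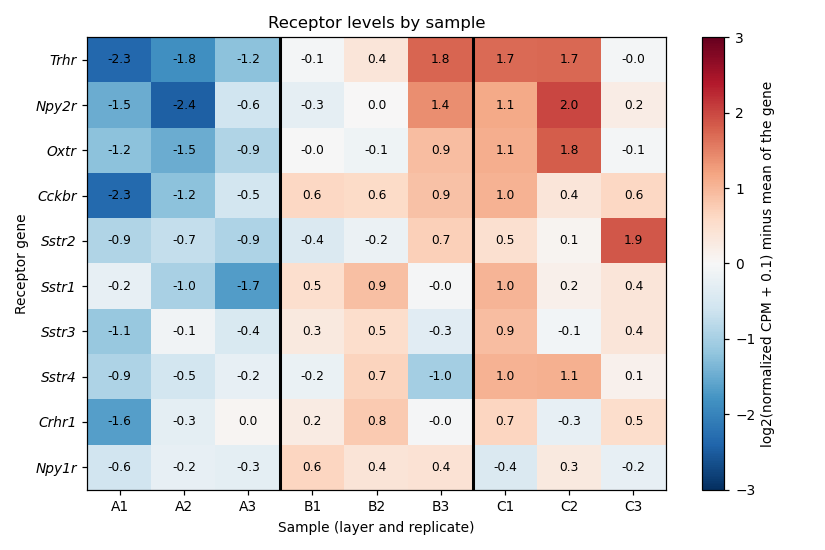
Level of each receptor in each of the 9 samples as log2 of normalized CPM plus 0.1, minus the gene's mean over the samples (colour and printed value). Trhr, Npy2r and Oxtr share high values in B3, C1 and C2, while Sstr2 is highest in C3, at 12.1 normalized CPM.

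The second comparison asked whether receptors separate layer B from layer C. None of the 10 receptors passed at an adjusted p-value under 0.05, beside 0.0% of all tested transcripts, and none had an unadjusted p-value under 0.05, beside 4.11% of all (edgeR's quasi-likelihood test). DESeq2 called none of the receptors and 124 transcripts in all. Npy1r was the 1 receptor whose groups did not overlap, with B higher as in 3.92% of all transcripts, and its log2 difference was 0.60 with a 95% interval from -0.10 to 1.30. The closest levels were those of Cckbr, at 17.5 ± 2.08 normalized CPM in B and 17.5 ± 4.30 in C (SD, n = 3), with a difference of 0.00 and an interval from -0.83 to 0.82. For Trhr, Npy2r and Oxtr the intervals reached from -1.61 to 0.79, from -1.90 to 0.47 and from -1.75 to 0.15, so differences of more than 2-fold in favour of C were not separated from 0 at this spread.

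Replicates of B and C differed in a shared way for some receptors. Trhr, Npy2r and Oxtr were high in layer B replicate 3 and layer C replicates 1 and 2, and lower in layer B replicates 1 and 2 and layer C replicate 3. Sstr1, Sstr3, Sstr4 and Crhr1 had their lowest layer B value in replicate 3. Without layer B replicate 3, which stood apart across all transcripts, the log2 differences of Trhr, Npy2r and Oxtr between B and C were -1.21, -1.47 and -1.26, with adjusted p-values of 0.48, 0.34 and 0.33 in edgeR's quasi-likelihood test. That sample held the highest layer B value of each of them, so its omission widens these differences by construction, and no receptor passed without it.

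**Figure D4:**
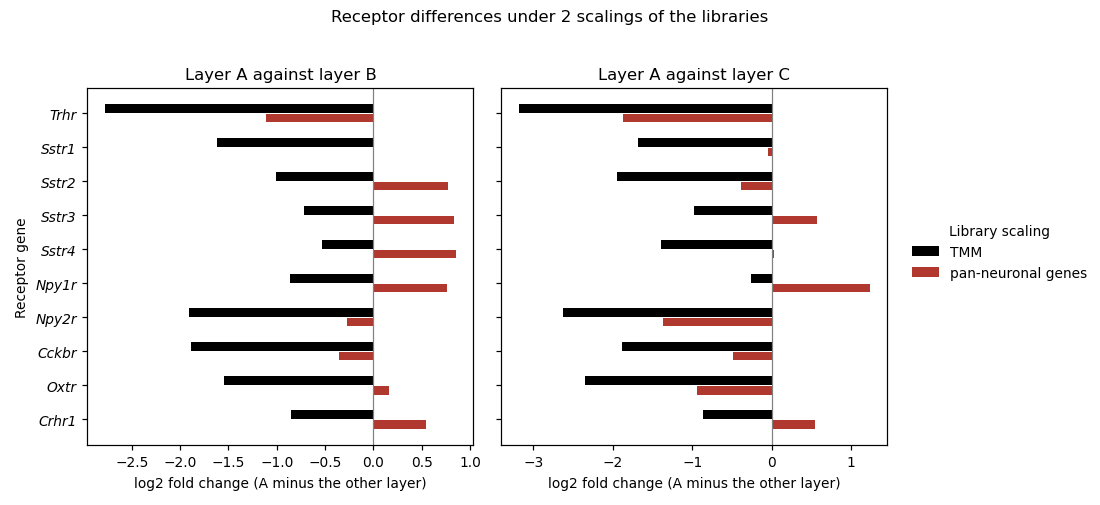
Log2 fold change (horizontal axis, linear) of each receptor in layer A against B (left) and against C (right), with libraries scaled by TMM (black) or by the 10 pan-neuronal genes (red). With the latter, 7 of 10 receptors against B and 4 of 10 against C turn to higher in A, while Trhr, Npy2r and Cckbr stay lower in A in both.

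Pan-neuronal markers were lower in layer A, so differences were also computed relative to them. This scaling moved the median of all transcripts by 1.62 between A and B and by 1.50 between A and C on the log2 scale, and 99.97% and 99.7% of all calls were then higher in A, against 64.7% and 61.6% with TMM. Relative to the pan-neuronal genes, no receptor passed between A and B, and 3 passed between A and C. Trhr (log2 difference -1.88, adjusted p = 0.021) and Npy2r (-1.37, adjusted p = 0.045) were lower in A than in C, and Npy1r was higher in A. Trhr, Npy2r and Cckbr against B were at -1.11, -0.28 and -0.36. Against C, Cckbr, Oxtr and Sstr2 were at -0.49, -0.94 and -0.39. None of these differences was past the threshold. Sstr1 was at 0.00 and -0.05 against B and C, and Sstr4 at 0.85 and 0.03.

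Compared per kilobase of transcript, Cckbr had the highest mean in each layer, at 1.801 ± 1.03 normalized CPM per kilobase in A, 6.79 ± 0.81 in B and 6.80 ± 1.67 in C (SD, n = 3). Npy1r followed in A at 1.76 ± 0.21, where its range of 1.52 to 1.91 lay within that of Cckbr, 0.790 to 2.85, and in B at 3.21 ± 0.30, and Oxtr followed in C at 3.18 ± 1.88. Below these the order in A was Sstr2, Sstr4, Sstr3, Oxtr, Npy2r, Crhr1, Sstr1 and Trhr, from 0.821 to 0.123. In B it was Oxtr, Npy2r, Sstr2, Sstr3, Sstr4, Trhr, Sstr1 and Crhr1, from 1.82 to 0.541. In C it was Sstr2, Npy2r, Sstr4, Npy1r, Sstr3, Trhr, Sstr1 and Crhr1, from 3.12 to 0.539. Neighbours in these orders overlapped in their samples except for Npy1r above Sstr2 in A, Cckbr above Npy1r and Npy1r above Oxtr in B, and Cckbr above Oxtr in C.

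Several receptors have a further counted transcript, which gives a second reading that shares most of its bases with the first. For Trhr the shorter ENSMUST00000110289 lacks 1863 of the 3608 bases. Its count was 0, 16.7% and 70.4% of that of the longer transcript in layer A, 69.9%, 76.0% and 14.6% in B and 70.1%, 53.9% and 55.4% in C. The high Trhr value of layer B replicate 3 was thus seen only in the count of the longer transcript. The shorter one stood at 0.874 normalized CPM there beside 1.15 and 1.69 in replicates 1 and 2. It has 0 bases outside the longer one, and which transcript was expressed was not tested. The shorter transcript passed lower in A than in B (log2 difference -2.38, adjusted p = 0.049) and than in C (-3.48, adjusted p = 0.012) in edgeR's quasi-likelihood test. For Npy2r the transcripts differ by 39 bases of 3364, and ENSMUST00000098997 had 17.1% of the longer one's count in layer B replicate 3 beside 24.6% to 50% elsewhere. It too passed lower in A, at -1.88 against B (adjusted p = 0.018) and -2.64 against C (adjusted p = 0.0059). For Sstr2 the coding-only ENSMUST00000067591 of 1041 bases had 27.9% of the count in layer B replicate 3 and 30% to 61.9% elsewhere, and passed against C at -2.15 (adjusted p = 0.022). The other Sstr2 transcript, ENSMUST00000106630 of 1537 bases, showed no such dip, with 76.4% of the count in layer B replicate 3 beside 76.2% and 66.7% in replicates 1 and 2, and it passed against C at -1.86 (adjusted p = 0.040). For Sstr1 the other transcript, ENSMUST00000110671, passed in neither comparison with A in edgeR's quasi-likelihood test. Its log2 differences in that test were -1.75 against B (adjusted p = 0.12) and -2.03 against C (adjusted p = 0.092). How the counting divided reads between such transcripts is not stated.

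**Figure D5:**
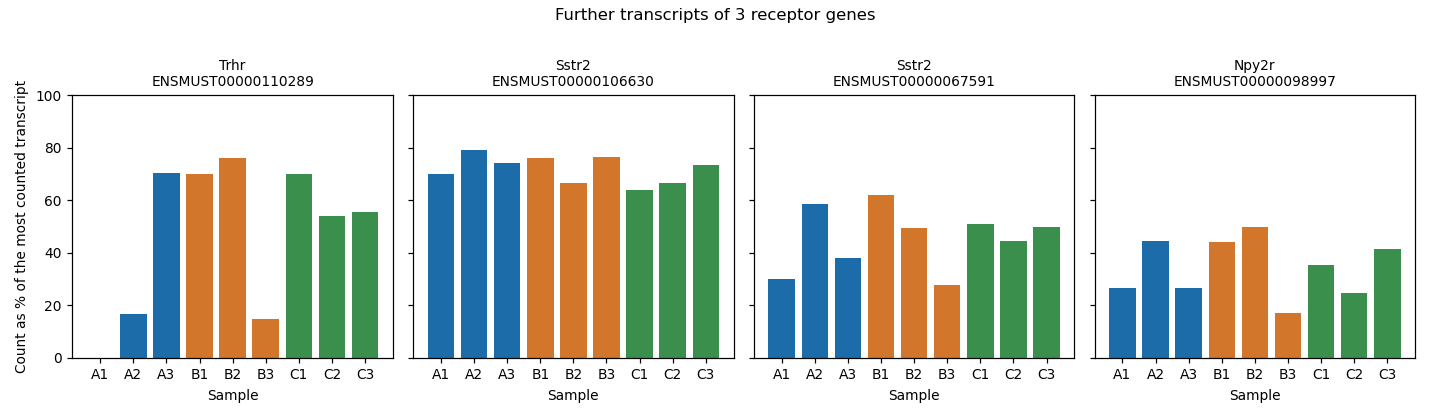
Count of a further transcript of Trhr (1 panel), Sstr2 (2 panels) and Npy2r (1 panel) as a percentage of the count of the transcript used (vertical axis, from 0) in each of the 9 samples, coloured by layer. Replicate 3 is the lowest bar of layer B for ENSMUST00000110289, ENSMUST00000067591 and ENSMUST00000098997, at 14.6%, 27.9% and 17.1%, and the highest for ENSMUST00000106630, at 76.4%.

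Peptides of the families that bind these receptors, with the binding protein Crhbp, made a list of 15 genes of which 6 were counted highly enough to test. Between A and B 2 passed and between A and C 3 passed, all lower in A, beside 5.83% of all tested transcripts for B and 4.35% for C, and these kept that direction with pan-neuronal scaling. Cck, the ligand of Cckbr, was at 8.30, 6.15 and 41.6 normalized CPM in layer A, 52.5, 51.3 and 175 in B and 178, 143 and 138 in C, with log2 differences of -2.30 (adjusted p = 0.020) and -3.02 (adjusted p = 0.0093) in edgeR's quasi-likelihood test. Crhbp, which binds corticotropin-releasing hormone, differed by -2.71 (adjusted p = 0.031) and -4.30 (adjusted p = 0.0060). Sst, the ligand of the somatostatin receptors, was at 7.96, 3.21 and 4.19 normalized CPM in A, 4.36, 4.27 and 72.9 in B and 49.1, 71.8 and 66.7 in C. Layer B replicate 3 was thus alone among B samples in reaching the level of C, and Sst passed against C (-3.62, adjusted p = 0.015) but not against B (-2.42, adjusted p = 0.058). Npy was at 1.78, 1.74 and 6.78 normalized CPM in A, 1.82, 1.57 and 15.5 in B and 6.26, 4.85 and 29.5 in C, highest in replicate 3 of each layer. Npy, Crh and Cort did not pass in any comparison. Trh had 0 to 41 counts per sample and was too low to test, and Oxt, Avp, Gast, Pyy, Ppy, Ucn, Ucn2 and Ucn3 had 0 to 10 counts.

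Other peptide receptors were checked as a list of 48 genes, of which 24 were tested. Between A and B 4 passed higher in A and 4 higher in B, and between A and C 2 passed higher in A and 9 higher in C, with Oprl1 and Mchr1 turning to higher in A in both under pan-neuronal scaling. Of all tested transcripts, 10.7% and 5.83% passed higher in A and in B, and 6.98% and 4.35% higher in A and in C, so the counts higher in A are near that background. The median log2 difference was -0.74 against B and -1.18 against C. Tacr1, the substance P receptor, differed by -3.78 (adjusted p = 0.0039) and -5.29 (adjusted p = 0.0019). The neurotensin receptor Ntsr2, known from astrocytes, was higher in A by 2.82 (adjusted p = 0.0020) and 2.40 (adjusted p = 0.0089), and Calcrl, known from vessels, by 2.08 in both (adjusted p = 0.0033 and 0.0068). Oprd1, the delta opioid receptor, differed by -0.65 against B (adjusted p = 0.35) and -2.24 against C (adjusted p = 0.0060), all in edgeR's quasi-likelihood test.

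Of 35 genes of G protein signalling 34 were tested. Between A and B 5 passed higher in A and 10 lower, and between A and C 3 and 10, with 6 and 4 of the lower ones turning to higher in A under pan-neuronal scaling. The background shares were again 10.7% higher and 5.83% lower in A against B, and 6.98% and 4.35% against C, near which the counts higher in A lie. Kcnj3, Kcnj6 and Kcnj9, which form potassium channels that Gi/o receptors open, passed lower in A against both layers and kept that direction with either scaling. Kcnj5, a further potassium channel gene of the list, did not pass lower in A in either comparison. Plcb3, a phospholipase C, was higher in A by 2.98 (adjusted p = 5.3e-04) and 1.99 (adjusted p = 0.0092), and Arrb1, an arrestin, by 1.65 (adjusted p = 0.0030) and 1.22 (adjusted p = 0.023). Prkacb, a catalytic subunit of protein kinase A, differed by -1.14 (adjusted p = 0.011) and -1.45 (adjusted p = 0.0058) in edgeR's quasi-likelihood test, and its sign turned with pan-neuronal scaling.

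Among 10 peptidases that cut neuropeptides, 3 passed higher in A and 2 higher in B, and against C 1 passed higher in A and 3 higher in C, where Trhde turned in both comparisons and Thop1 against C with pan-neuronal scaling. With 10 genes and background shares of 10.7% and 5.83% against B and 6.98% and 4.35% against C, the single gene higher in A than in C is near the background. Trhde, which degrades thyrotropin-releasing hormone, differed by -1.15 (adjusted p = 0.026) and -1.40 (adjusted p = 0.015) in edgeR's quasi-likelihood test. Dpp4 was higher in A by 2.70 (adjusted p = 0.0029) and 2.43 (adjusted p = 0.0098). Ece1 was higher in A than in B by 1.56 (adjusted p = 0.0032), with a difference of 0.11 from C (adjusted p = 0.88), and Ace was higher in A than in B by 1.85 (adjusted p = 0.0091) and differed from C by 0.72 (adjusted p = 0.33).

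For each receptor the genes with the most similar profile over the 9 samples were found among 11724 genes, by the root mean square difference of log2 normalized CPM after centring each gene on its mean. The smallest difference was that of Npy1r from Dcx, at 0.10, with Pcdhb19 next at 0.14. Sstr3 was nearest to Mapk8ip3 (0.19) and Abcg4 (0.21), Crhr1 to Cpt1c (0.20) and Atp9a (0.22), and Cckbr to Lrrn2 (0.21) and Snap47 (0.22). Npy2r was nearest to Gabra5 (0.27) and Vsnl1 (0.30), Oxtr to Gria3 (0.27) and Kcng3 (0.30), and Sstr2 to Shisa6 (0.25) and Cadps2 (0.36). Sstr1 was nearest to Tada3 (0.31) and the potassium channel gene Kcnj9 (0.36), and Sstr4 to Gm15337 (0.34) and Zfp109 (0.37). Trhr had the most distant neighbours of the 10, Tmem215 at 0.36 and Sema3a at 0.46. Tmem215 was at 0.847, 0.935 and 1.47 normalized CPM in layer A, 5.01, 3.44 and 11.3 in B and 9.74, 11.7 and 5.42 in C. As with Trhr, layer B replicate 3 and layer C replicates 1 and 2 were its highest samples. These likenesses are descriptions over samples that share libraries and depth.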

How the data were processed

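RNA of laser-captured layers was amplified by the authors with the Ovation system, made into strand non-specific libraries, sequenced in 50-base read pairs and aligned to mm10 with Bowtie. The authors deposited raw counts per Ensembl transcript, without normalization; bcl2fastq 1.8.4 and HTSeq 0.5.3 are named in the submitters' processing notes, and the counting mode is not given in the sources used here. Amplified reads without molecular identifiers are not independent molecules. Of 95533 identifiers 82779 (86.6%) matched the GENCODE annotation of GRCm38. Counts were tested in R 4.3.3 with edgeR 4.0.16 (TMM, quasi-likelihood F-test, at least 10 counts in at least 3 samples, all 9 samples, Benjamini-Hochberg threshold 0.05) and with DESeq2 1.42.0 as an alternative. The edgeR fit was also run on simulated counts, with equal numbers of transcripts raised and lowered in layer A. Such counts cannot test the choice of scaling. Named genes were the 10 receptors, the peptides, the 4 genes of each other list with the smallest p over the layers and the 2 genes most like each receptor. A gene that this rule names is not reported here. Kcnj3, Kcnj5, Kcnj6, Kcnj9, Oprl1, Mchr1 and Thop1 were named after their values were seen. Members, gene lists and marker lists were chosen with earlier results of these data known.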

Additional observations from a re-analysis of the deposited data

How the results depend on the processing

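Of 603 values of single receptors under the alternatives, 539 kept their direction and their side of the threshold, and 26 turned their direction, 1 of them a value that had passed, Oxtr between A and B. The 603 include B against C, where no receptor passed in any setting. Of 9 fits without 1 sample, Trhr kept its call in 9 against each layer, and Cckbr in 9 against B and 8 against C. Oxtr kept its call in 4 against B and 9 against C, Npy2r in 5 against each, and Sstr2 in 4 against C. Scaling on pan-neuronal genes had the largest effect. Receptors that passed then numbered 0 between A and B, 3 between A and C and 0 over the layers, transcripts numbered 28979, 28590 and 28648, and the differences that turned were Sstr1 0.0027, Sstr2 0.77, Sstr3 0.83, Sstr4 0.85, Npy1r 0.77, Oxtr 0.16 and Crhr1 0.55 against B and Sstr3 0.57, Sstr4 0.032, Npy1r 1.23 and Crhr1 0.54 against C. A filter of 10 counts in all 9 samples left 6 receptors to test, of which 2, 3 and 3 passed (A against B, A against C, any layer), and turned Cckbr between B and C to 0.011. Counts summed by gene gave 3562, 2622, 1 and 3153 genes (A against B, A against C, B against C, any layer) and turned Crhr1 between B and C to 0.0052. The highest transcript of each gene gave 3689, 2773, 4 and 3301 and turned Crhr1 between B and C to 0.010. Between B and C, DESeq2 called 124 transcripts, testing without a filter 10, and leaving out replicate 3 of both layers 7, with Sstr1 at 0.0052 and Crhr1 at 0.21 there. Features tested numbered 15701 by gene, 15170 for the highest transcripts and 33423 under the stricter filter, beside 56416 in the main fit. Causes of these changes were not tested.

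Leaving out 1 sample at a time gave 2 to 4 receptors between A and B, 2 to 7 between A and C, 0 between B and C and 0 to 6 over the layers (none without layer A replicate 2). Transcripts ranged from 5570 to 11337, from 1369 to 9740, from 0 to 17 and from 4070 to 11312. Differences that turned were Sstr4 between A and B, ranging from -0.81 to 0.052, and, between B and C, Sstr1 from -0.36 to 0.21, Cckbr from -0.15 to 0.16 and Crhr1 from -0.32 to 0.11. DESeq2 added Sstr1 in both comparisons with layer A, and fitting only the 6 samples of A and B ended the call of Npy2r (-1.87, adjusted p = 0.058 in edgeR's test). DESeq2's size factors in the edgeR fit, removal of mitochondrial transcripts and no filter on low counts changed no receptor call.

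Same-numbered samples of different layers showed no uniform shared deviation, with correlations of -0.19 to 0.24 and 4 of 9 pairs above 0.1. Replicate 3 had the highest total count of each layer. Its pairs stood at 0.13 (A and B), 0.19 (A and C) and 0.04 (B and C). The numbers were not taken to pair samples, since the study's methods use no replicate block. A replicate block gave 5, 5, 0 and 5 receptors and 9184, 6384, 0 and 7903 transcripts, and Sstr1 passed between A and B (-1.65, adjusted p = 0.0497). No other receptor call changed with the block. Depth limits layer A, where the counts of Trhr, Sstr1, Npy2r and Crhr1 were under 10 in at least 1 sample.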
